A study of Mus musculus with 6 samples.

Results

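Fibroblast growth factor (FGF) genes were examined in bulk RNA-seq of mesenchyme dissected from the proximal mouse incisor: the ligands, their receptors and partners, and the genes that FGF signaling switches on to limit itself. The 38 genes were picked by name out of 19270 genes with a value, with earlier results of these data known. Of the 38, 34 had a mean over both groups of at least 1 in the authors' normalized units. The control mice are labelled wild type, and the methods of the study describe them as *Arid1b* fl/fl mice given tamoxifen. The mutants were *Gli1-CreER;Arid1b* fl/fl mice given the same tamoxifen, and both groups held 3 samples from mice aged 1 month, taken 4 days after induction. The CreER recombinase acts in cells that express *Gli1*, a lineage that gives both mesenchyme and epithelium in the incisor, and no sorting for recombined cells is described. The methods name mesenchymal tissue as the source of the RNA, and markers of dental epithelium were present in both groups. Every value below is the authors' mean of a group. Values per sample were not analysed here, so no SD, test or p-value accompanies them, and a difference between 2 group means was not compared with the spread between samples.

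FGF ligands bind tyrosine kinase receptors together with heparan sulfate, and the receptors signal through the adaptor FRS2 to RAS and ERK. ERK raises the expression of ETS factors such as ETV4 and ETV5, and of Sprouty, SPRED and DUSP proteins, which damp the pathway in turn. In the growing mouse incisor, FGF3 and FGF10 from the mesenchyme and FGF9 from the epithelium are known to maintain the progenitors of the cervical loop, and Sprouty genes keep this exchange in bounds.

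The feedback inhibitors shared a direction. All 10 of them had a higher mean in the mutants than in the controls, at ratios of 1.06 to 1.41. Of the 14744 genes averaging at least 1, 51.4% were higher by any amount. The roles were assigned here, and with the 3 ETS factors added, 12 of 13 genes were higher. All 5 binding partners and adaptors were lower, at ratios of 0.808 to 0.983. Counting error alone left the direction open for *Spry4*, *Spred3* and *Dusp5* among the inhibitors, and for *Flrt3*, *Frs3* and *Fgfbp3* among the partners. The mesenchymal ligands *Fgf3* and *Fgf10* were lower in the mutants and the epithelial ligand *Fgf9* was higher. Among the receptors *Fgfr2* was higher and *Fgfr3* lower, and *Fgfr1*, the most abundant, had a ratio of 0.963. In bulk RNA, fewer cells of a type and less RNA per cell cannot be told apart. The median log2 ratio of mutant to control was 0.099 over the 34 genes and 0.0050 over all 14744.

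By size, most ratios lay within 1.5-fold. A ratio past 1.5-fold in the direction of higher expression was found for 4 of the 34 genes, namely *Fgf7*, *Fgf12*, *Fgf14* and *Fgf16*, and for 4.14% of all genes. *Fgf7*, *Fgf12* and *Fgf14* had control means below 1 and reached the minimum level of 1 only through their mutant means, so the count of 4 is a description. None of the 34 was lower by more than 1.5-fold, against 1.91% of all genes. The 4 genes were among 12 FGF pathway genes with a mean from 1 to under 10, a range in which 8.75% of all genes were higher and 4.24% lower past that ratio. Of the 22 FGF pathway genes averaging at least 10, none passed 1.5-fold, against 2.15% of such genes higher and 0.912% lower. Within 1.25-fold lay 21 of these 22 genes, and 90.6% of all genes at that level. From 1 to under 10, 4 of the 12 genes lay within 1.25-fold, against 68.0% of all genes at that level. Over all levels it was 25 of the 34, against 83.8%. Both sets include *Fgf7*, *Fgf12* and *Fgf14*, which entered through their mutant means, so these shares too are only a description. The median log2 ratio without its sign was 0.158 for the 22 genes and 0.084 for all genes averaging at least 10.

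**Figure D1:**
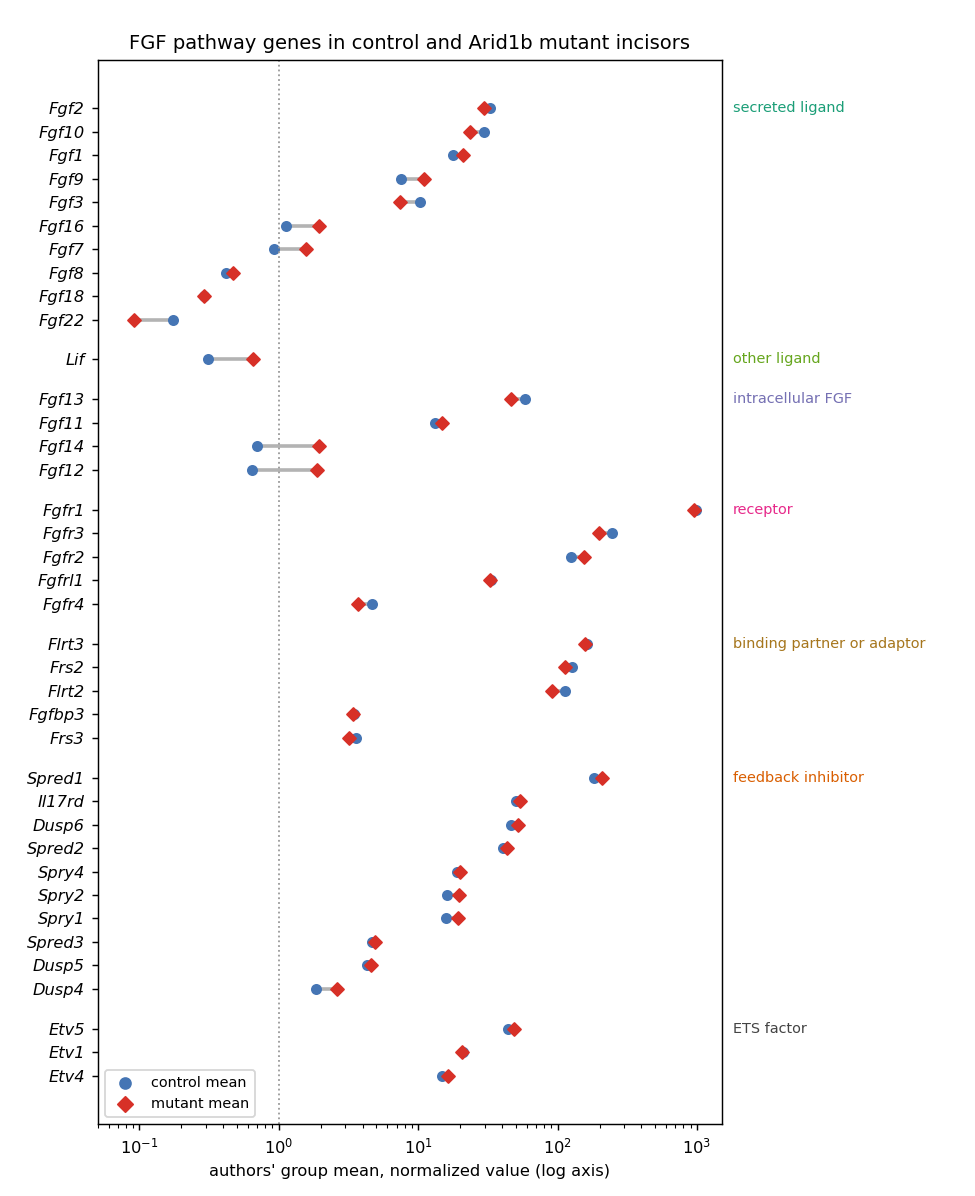
Group means of the 38 genes by role, as normalized values on a log axis, with the control mean as a circle and the mutant mean as a diamond; the dotted line marks a mean of 1. Each of the 10 feedback inhibitors has its mutant mean to the right of its control mean, and each of the 5 binding partners and adaptors has it to the left.

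The promoters of the genes at the centre of this pattern are shown so that their sequence can be read beside the values. They belong to *Spry1*, *Spry2*, *Spred1* and *Dusp6*, the feedback inhibitors with the largest ratios among those that averaged at least 10 and have a promoter entry, and to the ligands *Fgf3* and *Fgf10*. Sequences are from RefSeq on GRCm38.p6 and run 5′ to 3′ over up to 250 bases before the RefSeq start of transcription, which for *Fgf3* and *Fgf10* lies inside a longer GENCODE gene model. The *Fgf3* window was shortened by 17 bases where an exon of another annotated transcript begins. Capitals mark GC boxes, the letters GGGCGG on either strand.

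Spry1 promoter, chr3:37639697-37639946, plus strand: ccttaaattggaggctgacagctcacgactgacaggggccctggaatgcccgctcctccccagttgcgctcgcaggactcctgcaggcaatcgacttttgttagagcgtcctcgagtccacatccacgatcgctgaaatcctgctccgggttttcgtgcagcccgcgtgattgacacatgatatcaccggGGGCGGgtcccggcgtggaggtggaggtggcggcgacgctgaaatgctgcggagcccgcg
Spry2 promoter, chr14:105896820-105897069, minus strand: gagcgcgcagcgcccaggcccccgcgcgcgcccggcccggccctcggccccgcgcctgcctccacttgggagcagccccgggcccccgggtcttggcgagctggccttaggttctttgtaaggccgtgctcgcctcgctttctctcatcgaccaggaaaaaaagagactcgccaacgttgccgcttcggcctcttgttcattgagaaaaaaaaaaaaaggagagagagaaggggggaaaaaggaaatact
Spred1 promoter, chr2:117120821-117121070, plus strand: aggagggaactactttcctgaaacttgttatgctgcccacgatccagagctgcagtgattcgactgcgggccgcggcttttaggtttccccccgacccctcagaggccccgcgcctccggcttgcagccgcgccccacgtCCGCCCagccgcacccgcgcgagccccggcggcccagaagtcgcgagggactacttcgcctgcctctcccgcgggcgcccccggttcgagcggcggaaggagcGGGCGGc
Dusp6 promoter, chr10:99262981-99263230, plus strand: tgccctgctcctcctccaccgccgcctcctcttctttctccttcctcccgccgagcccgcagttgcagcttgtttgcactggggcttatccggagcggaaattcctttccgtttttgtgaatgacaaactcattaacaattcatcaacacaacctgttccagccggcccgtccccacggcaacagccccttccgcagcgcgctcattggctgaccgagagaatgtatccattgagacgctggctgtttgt
Fgf3 promoter, chr7:144838362-144838594, plus strand: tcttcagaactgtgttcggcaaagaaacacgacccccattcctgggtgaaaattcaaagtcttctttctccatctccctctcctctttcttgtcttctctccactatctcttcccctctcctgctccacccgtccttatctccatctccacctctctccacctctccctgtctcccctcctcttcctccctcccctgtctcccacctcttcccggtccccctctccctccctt
Fgf10 promoter, chr13:118714449-118714698, plus strand: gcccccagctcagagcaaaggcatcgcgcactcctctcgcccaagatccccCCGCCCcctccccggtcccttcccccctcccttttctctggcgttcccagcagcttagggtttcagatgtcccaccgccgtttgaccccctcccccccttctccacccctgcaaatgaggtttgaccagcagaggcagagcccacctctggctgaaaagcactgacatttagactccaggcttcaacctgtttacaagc

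The *Spry1* window holds 1 GC box that begins 60 bases before the start, and the *Spred1* window holds 2, which begin 110 and 7 bases before it. The *Fgf10* window holds 1 that begins 199 bases before its start, and the *Spry2*, *Dusp6* and *Fgf3* windows hold none. A GC box occurred in the windows of 35.4% of 27025 genes, whatever their level, and of 19 of the 31 FGF pathway genes with a promoter entry. Of the 8 feedback inhibitors with an entry, 6 had one. The core letters of an ETS site, GGAAGT on either strand, occurred in 2 of these 8 and in 22.2% of all genes, and in none of the 6 windows printed above. The cyclic AMP response element TGACGTCA occurred in none of the 8 and in 1.77% of all genes, and the TATA box letters TATAAA in none of the 8 and in 14.3%. These are matches of letters in 250 bases and say nothing of binding.

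Although mesenchyme was dissected, epithelial transcripts were measured in both groups, and the group means of markers of other cell types stand beside those of the FGF genes. Of 14 dental epithelium markers, 13 were higher past 1.5-fold in the mutants and 1 (*Klk4*) was lower, with a summed mean of 1754 in control and 10584 in mutant incisors, and none was at 0. Of the enamel matrix genes, *Amelx* averaged 361.9 in control and 3946 in mutant incisors, and *Ambn* 617.4 and 3360. *Krt14*, a keratin of the basal epithelium, had means of 90.4 and 182.3. Of 7 pan-epithelial markers with a mean of at least 1, all 7 were higher, and the summed mean of the 10 in the table was 201.8 and 364.9. *Fgf9* and *Fgfr2*, which epithelial cells express, were also higher, at ratios of 1.47 and 1.23. Of the 7 pan-epithelial markers, 5 were past 1.5-fold. The median log2 ratio of the 7 was 0.858, against 0.552 for *Fgf9* and 0.296 for *Fgfr2*. Ratios of the 10 in the table ran from 1.07 for *Krt8* to 2.89 for *Cldn4*, whose mean over both groups was below 1. Of 13 dental mesenchyme markers with a mean of at least 1, 9 were lower and 4 higher, with a median log2 ratio of -0.17. Past 1.5-fold, *Fmod* and *Gli1* were lower and *Igfbp6* was higher. The summed mean of the 14 in the table was 3625 and 2865. The most abundant weigh most in it, *Vim* at 1463 and 1208 and *Fmod* at 1140 and 748.8. *Fgf3* and *Fgf10* were lower. The part of tissue composition in these ratios was not tested.

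Among the feedback inhibitors, the Sprouty proteins block the path from the receptor to RAS. *Spry1* (chromosome 3, 37639947 to 37644598) averaged 15.9 in control and 19.3 in mutant incisors, a ratio of 1.21. *Spry2* (chromosome 14, 105891947 to 105896819) had means of 16.2 and 19.5, also a ratio of 1.21. *Spry4* differed less, with means of 18.9 and 19.9. For *Spry1* and *Spry2* the 95% counting interval of the ratio was 1.14 to 1.29 and 1.14 to 1.28. Such an interval comes from an estimated number of reads and covers counting error only, not the difference between samples. For *Spry4* it was 0.998 to 1.12.

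The SPRED proteins, which hold back RAS by recruiting neurofibromin, showed the same direction. *Spred1* (chromosome 2, 117121374 to 117182279) was the most abundant of the feedback inhibitors, averaging 182.3 in control and 207.5 in mutant incisors, a ratio of 1.14. *Spred2* had means of 40.4 and 43.7, and *Spred3* had 4.63 and 4.93. *Il17rd*, which encodes the membrane inhibitor also named SEF, had means of 50.4 and 53.8. The DUSP proteins remove the activating phosphates from ERK. *Dusp6* (chromosome 10, 99263231 to 99267489), an ERK phosphatase of the cytoplasm, had means of 46.3 and 51.9, a ratio of 1.12. *Dusp5* had means of 4.29 and 4.61 and a counting interval of 0.954 to 1.22. *Dusp4* had the largest ratio of the 10, at 1.41, but the lowest mean, with values of 1.86 and 2.63 and a counting interval of 1.19 to 1.69. Of the ETS factors, *Etv5* had means of 44.1 and 48.5 and *Etv4* had 14.9 and 16.4, both at a ratio of 1.10. The third, *Etv1*, had 20.9 and 20.6.

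**Figure D2:**
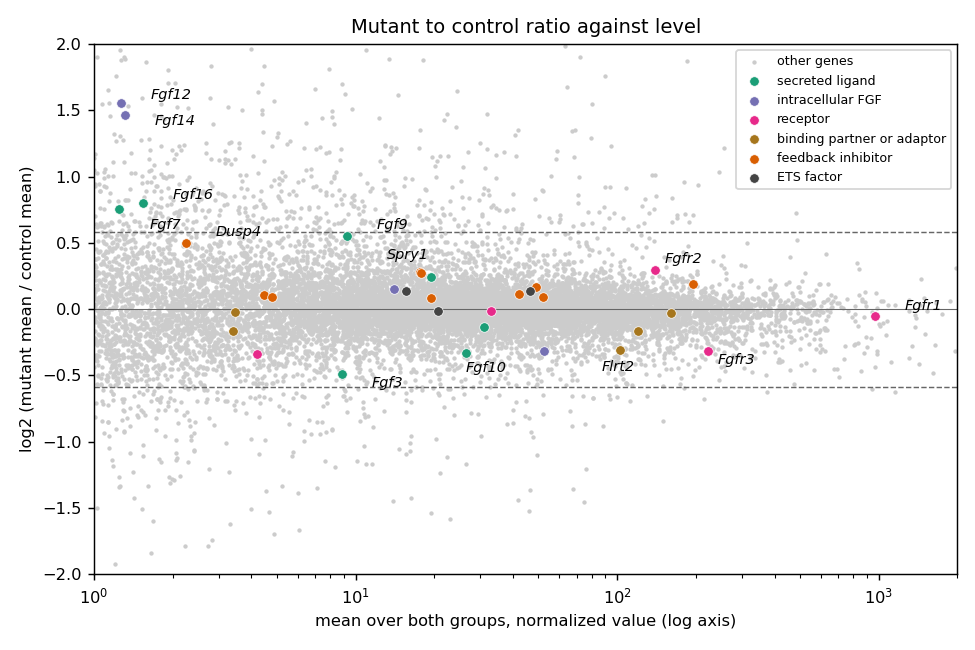
Log2 of the mutant mean over the control mean against the mean over both groups, on a log axis, for the 34 FGF pathway genes coloured by role and for other genes in grey; dashed lines mark 1.5-fold, and other genes outside the axes, such as those beyond 2 on the log2 scale, are not drawn. *Fgf12*, *Fgf14*, *Fgf16* and *Fgf7* lie above the upper line near a mean of 1, and the feedback inhibitors lie above 0 at every level.

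Of the 7 secreted ligands with a mean of at least 1, 4 were higher and 3 lower in the mutants. *Fgf3* (chromosome 7, 144838083 to 144844436), which signals to the epithelium through the IIIb forms of FGFR1 and FGFR2, averaged 10.4 in control and 7.39 in mutant incisors, a ratio of 0.713 with a counting interval of 0.654 to 0.777. *Fgf10* (chromosome 13, 118669791 to 118792115), a ligand of FGFR2 IIIb, had means of 29.4 and 23.4, a ratio of 0.794. *Fgf9* (chromosome 14, 58070547 to 58112720), which acts from the epithelium on the mesenchyme, had means of 7.52 and 11.0, a ratio of 1.47 just inside 1.5-fold. Per kilobase of exon, the level of *Fgf9* was 0.363 of that of *Fgf3* in the controls and 0.747 in the mutants. *Fgf7*, a close relative of *Fgf10*, had means of 0.930 and 1.57, and its level per kilobase was far below that of *Fgf10*, which exceeded it 22.4 times in the controls and 10.5 times in the mutants. *Fgf16*, a relative of *Fgf9*, had means of 1.12 and 1.95, a ratio of 1.74.

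The growth factors *Fgf1* and *Fgf2* lack a classical signal peptide and act on many cell types. *Fgf1* averaged 17.8 in control and 21.1 in mutant incisors, a ratio of 1.18, and *Fgf2* had 32.5 and 29.5, a ratio of 0.908. *Fgf8*, *Fgf18* and *Fgf22* had a mean over both groups below 1. *Fgf8*, a signal of the early dental epithelium, had means of 0.421 and 0.468, and *Fgf18* had 0.290 in the controls and 0.288 in the mutants. *Fgf22* averaged 0.174 in control and 0.0907 in mutant incisors. The latter is under 0.0923, the mean that 3 reads in each mutant library would give, so no ratio is given for it. *Lif*, a cytokine of the interleukin 6 family and no FGF, had means of 0.308 and 0.652, from about 33 and 82 reads over 3 libraries by estimate. *Fgfbp1* and *Klb*, also named by the rule, were not among the genes with a value.

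*Fgf11*, *Fgf12*, *Fgf13* and *Fgf14* encode FGF homologous factors, which stay inside the cell, do not activate FGF receptors in the usual way and are known as partners of voltage-gated sodium channels. *Fgf12* (chromosome 16, 28160098 to 28753068) averaged 0.643 in control and 1.89 in mutant incisors, a ratio of 2.94. *Fgf14* (chromosome 14, 123977907 to 124677127) had means of 0.698 and 1.93, a ratio of 2.76. These were the largest ratios of the 34 genes, at levels near 1, and both genes reached the minimum level of 1 only through their mutant means. *Fgf13*, the most abundant of these factors per kilobase, had means of 58.0 and 46.7, a ratio of 0.805, and *Fgf11* had 13.3 and 14.7. Of 4 listed glial and nerve markers with a mean of at least 1, 2 were higher and 2 lower in the mutants, with a summed mean over all 5 in the table of 31.3 in control and 34.3 in mutant incisors, and none was at 0. Their part in these values was not tested.

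The receptors carry the signal into the cell. *Fgfr1* (chromosome 8, 25513654 to 25575718) averaged 983.2 in control and 947.2 in mutant incisors, a ratio of 0.963. Per kilobase of exon it had the highest level of the 38 genes in both groups, and made up 67.4% of the summed level of the 4 signaling receptors in the controls and 68.7% in the mutants. *Fgfr3* (chromosome 5, 33721674 to 33737068), known as a brake on growth in cartilage, had means of 247.6 and 199.0, a ratio of 0.803, and its share was 23.4% and 19.9%. *Fgfr2* (chromosome 7, 130162451 to 133123350) had means of 125.7 and 154.4, a ratio of 1.23, and its share was 8.25% and 10.7%. The RefSeq promoter window of *Fgfr2*, at 130266809 to 130267058, lies inside that longer GENCODE gene model, whose exon length was used for the share. *Fgfr4* had means of 4.69 and 3.70. *Fgfrl1*, a receptor without the kinase domain, had 33.2 and 32.8. The files give 1 value per gene, so the IIIb and IIIc forms of a receptor, which differ in the ligands they bind, were not separated.

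**Figure D3:**
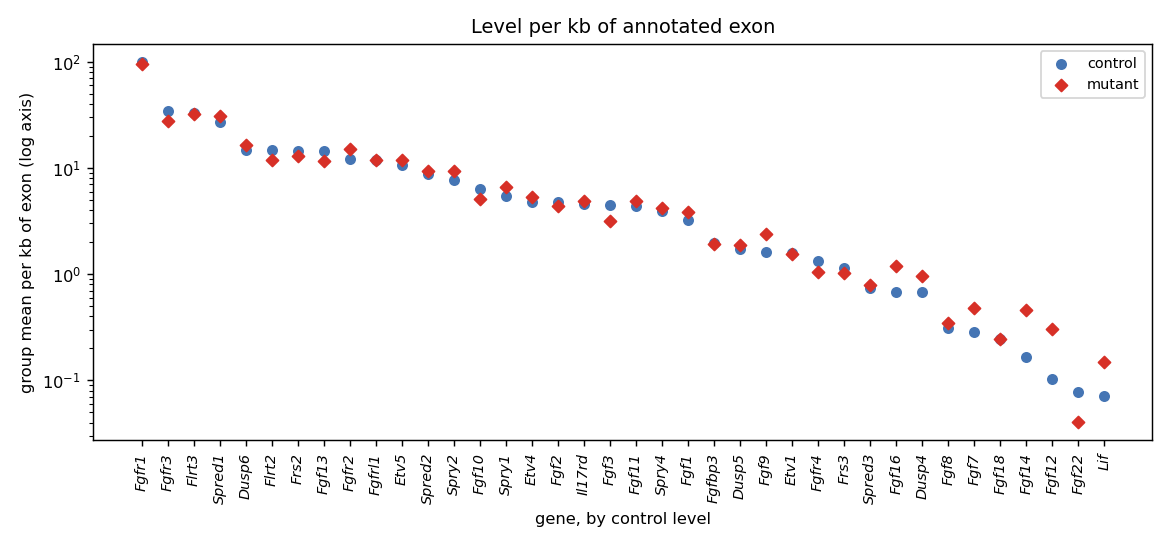
Group mean per kilobase of annotated exon (log axis) for the 38 genes, ordered by the control level, with circles for controls and diamonds for mutants. *Fgfr1* is highest in both groups, at 99.6 and 95.9, and *Lif* and *Fgf22* are lowest.

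The 5 binding partners and adaptors were all lower in the mutants, by small amounts for most. *Flrt2* (chromosome 12, 95692226 to 95785215), a membrane protein of the FLRT family that binds FGF receptors, averaged 113.3 in control and 91.6 in mutant incisors, a ratio of 0.808. Its relative *Flrt3* had 161.5 and 158.4, with a counting interval of 0.9616 to 1.0005. *Frs2*, which links the receptors to GRB2 and SHP2, had means of 126.6 and 112.8, a ratio of 0.891. Its relative *Frs3* had 3.59 and 3.21, with a counting interval of 0.777 to 1.02. *Fgfbp3*, which encodes a carrier of secreted FGFs, had 3.48 and 3.42, with a counting interval of 0.857 to 1.13. Ordered by level per kilobase, *Fgfr3*, *Flrt3* and *Spred1* followed *Fgfr1* in the controls, and *Flrt3*, *Spred1* and *Fgfr3* in the mutants.

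Other genes of the pathway were taken from lists. Of 22 heparan sulfate co-receptors and enzymes, 12 were higher and 10 lower in the mutants, none past 1.5-fold, with a median log2 ratio of 0.0095. The highest means were those of the syndecan *Sdc3*, averaging 994.0 in control and 717.0 in mutant incisors, and the basement membrane proteoglycan *Hspg2*, with 512.8 and 435.7. Of 24 genes of the RAS and ERK cascade, 10 were higher and 14 lower, none past 1.5-fold, with a median of -0.010. Of 15 other early and target genes of ERK in the table, 12 were higher and 3 lower, with a median of 0.13. Past 1.5-fold, *Egr1* (7.96 in the controls and 14.7 in the mutants), *Fos* (2.44 and 4.41) and *Ccn1* (13.4 and 23.1) were higher and *Fosb* (1.32 and 0.817) was lower. Early genes of this kind are also known to respond to tissue handling, and the part of handling was not tested.

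**Figure D4:**
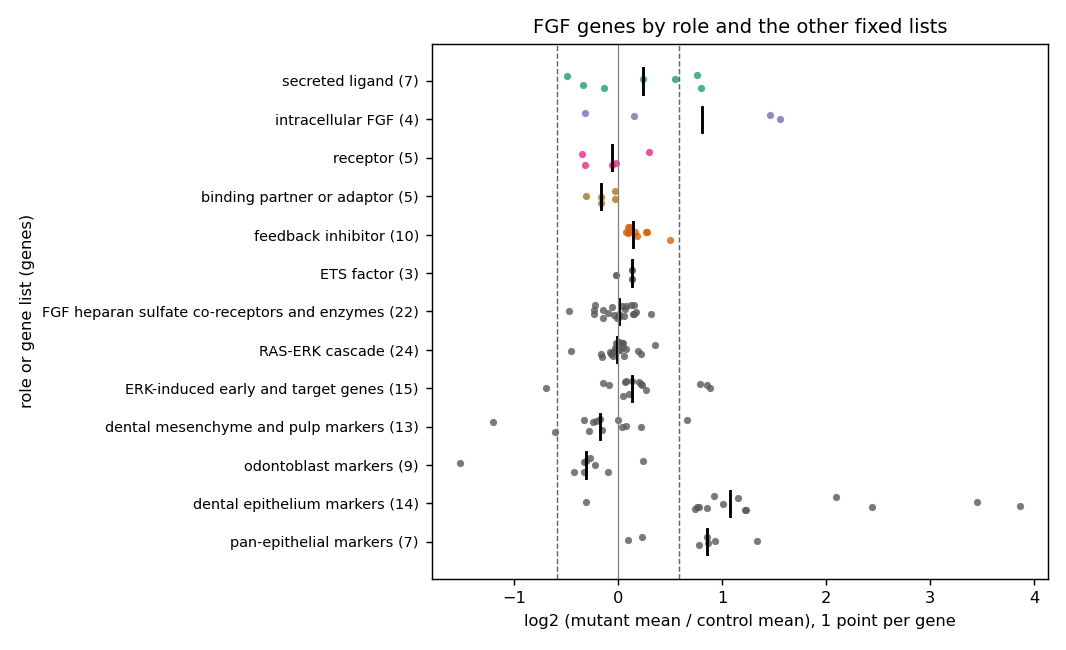
Log2 of the mutant mean over the control mean, 1 point per gene with a mean of at least 1, for the FGF genes by role and for the other lists; black bars mark medians, dashed lines mark 1.5-fold, and brackets give the number of genes. The heparan sulfate and RAS-ERK lists centre near 0, the feedback inhibitors lie wholly above 0, and 13 of the 14 dental epithelium markers lie past 1.5-fold.

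Of 9 odontoblast markers, 8 were lower, among them *Dspp*, the dentin matrix gene, at 5179 and 4136, and *Dmp1* at 68.1 and 23.7. All 5 macrophage and leukocyte markers were higher by less than 1.5-fold, with summed means of 274.7 and 306.5, and 3 of 5 endothelial markers were higher, with summed means of 308.1 and 311.0. Skeletal muscle markers summed to 6.66 and 6.17 and erythroid markers to 63.7 and 22.1. The targeted gene *Arid1b* had means of 97.6 and 38.0, a ratio of 0.390, and *Gli1*, the gene whose locus carries CreER, had means of 106.4 and 46.1. The Y-linked transcript *Ddx3y* was at the lowest mean of the control group and at 65.3 in the mutants, and *Xist* had means of 3368 and 813.8. Sex is not stated in the labels, and in these values sex and genotype cannot be told apart. *Fgf13* and *Fgf16* are the members on the X chromosome, whose 506 genes with a mean of at least 1 had a median log2 ratio of -0.031, against 0.0062 for the autosomes.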

How the data were processed

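RNA from 3 control and 3 mutant samples was sequenced, and per the study's methods the reads were trimmed, aligned to mm10 and compared in Partek Flow. The submitters' processing notes list TopHat2 2.0.8, and the counting, annotation and strand setting are not given in the sources used here. The deposited table gives, for each gene, the authors' mean of each group as a normalized signal. Its other columns, the authors' p-values, FDR, ratios and fold changes, were not used, nor was a table filtered by them. From the deposited library summary, each of the 6 libraries had an upper quartile from 44.57 to 44.58, and the lowest signal of a library was taken as that of no reads, an inference under which 37123643 to 49594469 reads fell on the genes. Ratios of the group means were computed here with no pseudocount, over genes with a mean over both groups of at least 1, and called past 1.5-fold, the fold threshold of the study. The lists and the genes examined were chosen with earlier results of these data known. Genes with a mean of at least 10 or past 1.5-fold were named by rule; *Fgf3* was named as a marker of the group, and *Fgf9*, *Dusp4*, *Krt14*, *Klk4*, *Krt8* and *Cldn4* were singled out after their values were seen. Coordinates and exon lengths are from GENCODE vM21 on GRCm38 (mm10), where 18840 gene names matched 1 gene, and 31 of the 38 genes matched a RefSeq promoter. Intervals are exact Clopper-Pearson at 95%. The alternatives tried were other filters and fold thresholds, a pseudocount of 1 and centring on all genes, and the computation of ratios was tested on simulated data. Python 3.11.15, numpy 2.4.6, pandas 2.3.3 and scipy 1.17.1 were used.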

Additional observations from a re-analysis of the deposited data

How the results depend on the processing

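The number of FGF genes higher past 1.5-fold was 4, and it was 5 without a filter on level, 0 among genes averaging at least 10, 2 with a pseudocount of 1, 9 at 1.2-fold and 2 at 2-fold. The number lower was 0, and it was 1 without a filter (*Fgf22*, under the level of 3 reads in the mutants) and 6 at 1.2-fold. The smaller number at a mean of at least 10 follows from the low level of *Fgf7*, *Fgf12*, *Fgf14* and *Fgf16*, and a pseudocount of 1 reduced their log2 ratios to 0.41, 0.81, 0.79 and 0.48. All 10 feedback inhibitors stayed higher with a pseudocount of 1 and after centring, and all 26 genes named by rule kept their direction. Neither alternative could have changed this, so they are no check on direction. Adding 1 to both means leaves the larger one larger. Centring shifted each log2 ratio down by only 0.0050, and the smallest positive one among these genes was 0.080, for *Spry4*. The median log2 ratio lay between 0.086 and 0.16 under the alternatives run, among them, added after the data were seen, leaving out the intracellular FGF genes or the X-linked genes. For other lists, the median of glial and nerve markers was -0.094 without a filter and 0.43 at a mean of at least 10, that of skeletal muscle markers -0.31 without a filter and -0.33 with a pseudocount of 1, and with that pseudocount those of erythroid and sex-linked transcripts were -1.40 and 4.77. The cause was not tested. No paired analysis was possible because the deposited tables used here hold group means, and for the same reason no library could be left out. A mean without values per sample cannot show whether a difference of the size seen for most of these genes exceeds the spread between samples.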
